A study of Mus musculus with 6 samples.

Results

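Cell surface antigens that are widely used to sort stem and progenitor cells were examined in mouse ovarian surface epithelium, the single cell layer over the ovary. The 10 genes were Cd44, Alcam, Cd24a, Epcam, Prom1, Thy1, Ly6a, Procr, Abcg2 and Kit. They were taken by name, and every probe set annotated to exactly 1 of them was used. This gave 20 of the 45037 non-control probe sets and covered 9 of the 10 genes, since no probe set was annotated to Ly6a in the annotation used. The 2 groups were ALDH-positive cells and ALDH-negative cells, sorted from the same primary cultures by ALDEFLUOR, a fluorescent substrate of aldehyde dehydrogenases, with inhibitor-treated and unstained cells as controls. All mice were virgin FVB/N females aged 8 weeks, and the cells spent 24 hours in culture before sorting. Each of 3 pools of 10 mice gave 1 array of either fraction, so that 3 ALDH-positive and 3 ALDH-negative samples were measured on Affymetrix Mouse Genome 430 2.0 arrays. A level below is a normalized log2 signal of 1 probe set on 1 array, and a difference is ALDH-positive minus ALDH-negative within a pool. The levels of different probe sets cannot be set against each other, because each has its own affinity.

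These proteins belong to several families. Cd44 binds hyaluronan, Alcam is an adhesion molecule of the immunoglobulin superfamily, and Epcam is an adhesion protein of epithelia. Thy1, Ly6a and Cd24a are held in the membrane by a lipid anchor. Procr is the receptor for activated protein C, Kit is the receptor tyrosine kinase for stem cell factor, Prom1 is a protein of membrane protrusions, and Abcg2 is an efflux pump that gives side population cells their dye exclusion. None of them marks a stem cell by itself, since stroma, leukocytes, endothelium and germ cells carry some of them too.

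One array differed from all others, the ALDH-negative one of pool 2. Across probe sets it correlated with them at 0.558 to 0.679, and they correlated among themselves at 0.85 to 0.974. The 3' control of beta-actin, read as deposited, gave 5.03 there and at least 9.56 elsewhere. In pool 3 the 5' control of Gapdh was dim, with 5.20 on the ALDH-positive array and 6.63 on the ALDH-negative one, against at least 7.92 on the remaining arrays. Values are therefore given by pool for the members and for the related genes named. A bulk array cannot tell fewer cells of a type from less RNA per cell.

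Signal above background was judged against a level of 2.73, the value below which 40% of all probe sets lay by their mean over the arrays. Genes of the Y chromosome, which female mice lack, gave a second measure of background. Of their 13 probe sets, 10 stayed between 0.35 and 1.79 on every array. The other 3, of Sry and Zfy2, read between 2.75 and 5.50 on the ALDH-positive arrays, between 1.93 and 5.74 on the ALDH-negative arrays of pools 1 and 3, and between 5.65 and 8.01 on the ALDH-negative array of pool 2. Probe sets of absent transcripts thus read above the level of 2.73 on every array. A value of a single probe set within these ranges is a weak sign of its transcript, and the limit reaches highest on the ALDH-negative array of pool 2.

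In ALDH-positive cells, 7 of the 9 measured genes had a probe set above this level on all 3 arrays, namely Cd44, Alcam, Cd24a, Epcam, Thy1, Procr and Abcg2. In ALDH-negative cells 6 did, the same genes without Thy1. Cd44 passed through 1434376_at in ALDH-positive cells and through 1452483_a_at in ALDH-negative cells. No probe set of Cd44 passed in both. By probe set, 13 of the 20 passed on all ALDH-positive arrays and 9 of the 20 on all ALDH-negative arrays. Over all probe sets, 48.2% passed this limit on the ALDH-positive arrays and 40.4% on the ALDH-negative ones. When the limit was the 90th percentile of the Y-linked probe sets on the same array, 7 genes passed in ALDH-positive cells and 3 in ALDH-negative cells. These 3 were Cd24a, Epcam and Procr. That stricter limit was 6.37 on the ALDH-negative array of pool 2 and between 2.63 and 4.31 on the other arrays. With the level of 2.73 and at least 2 of 3 arrays required, 7 genes and 15 probe sets passed in each fraction. Thy1 fell below that level only on the ALDH-negative array of pool 2, at 2.47.

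Prom1 and Kit were not detected in either fraction. The probe set of Prom1 read 1.25, 1.84 and 1.50 in ALDH-positive cells of pools 1 to 3, against 1.59, 1.23 and 1.37 in ALDH-negative cells. Both probe sets of Kit stayed between 0.70 and 1.32 in ALDH-positive cells and between 1.07 and 1.45 in ALDH-negative cells. These ranges lie mostly within that of the dim Y-linked probe sets. Oocytes and mast cells carry Kit as well. Of the 8 oocyte markers, 1 (Gdf9) was above the background level on all arrays of both fractions, and Zp1, Zp2, Bmp15 and Ddx4 were below it on every array. The mean level of the oocyte list was 1.68 to 2.06 on the ALDH-positive arrays and 1.60 to 2.87 on the ALDH-negative arrays. Of the 6 mast cell markers, 1 (Cma1) was above the level throughout, and Mcpt4 and Fcer1a were below it on every array. The mean level of that list was 1.76 to 2.34 on the ALDH-positive arrays and 1.75 to 2.89 on the ALDH-negative arrays.

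**Figure D1:**
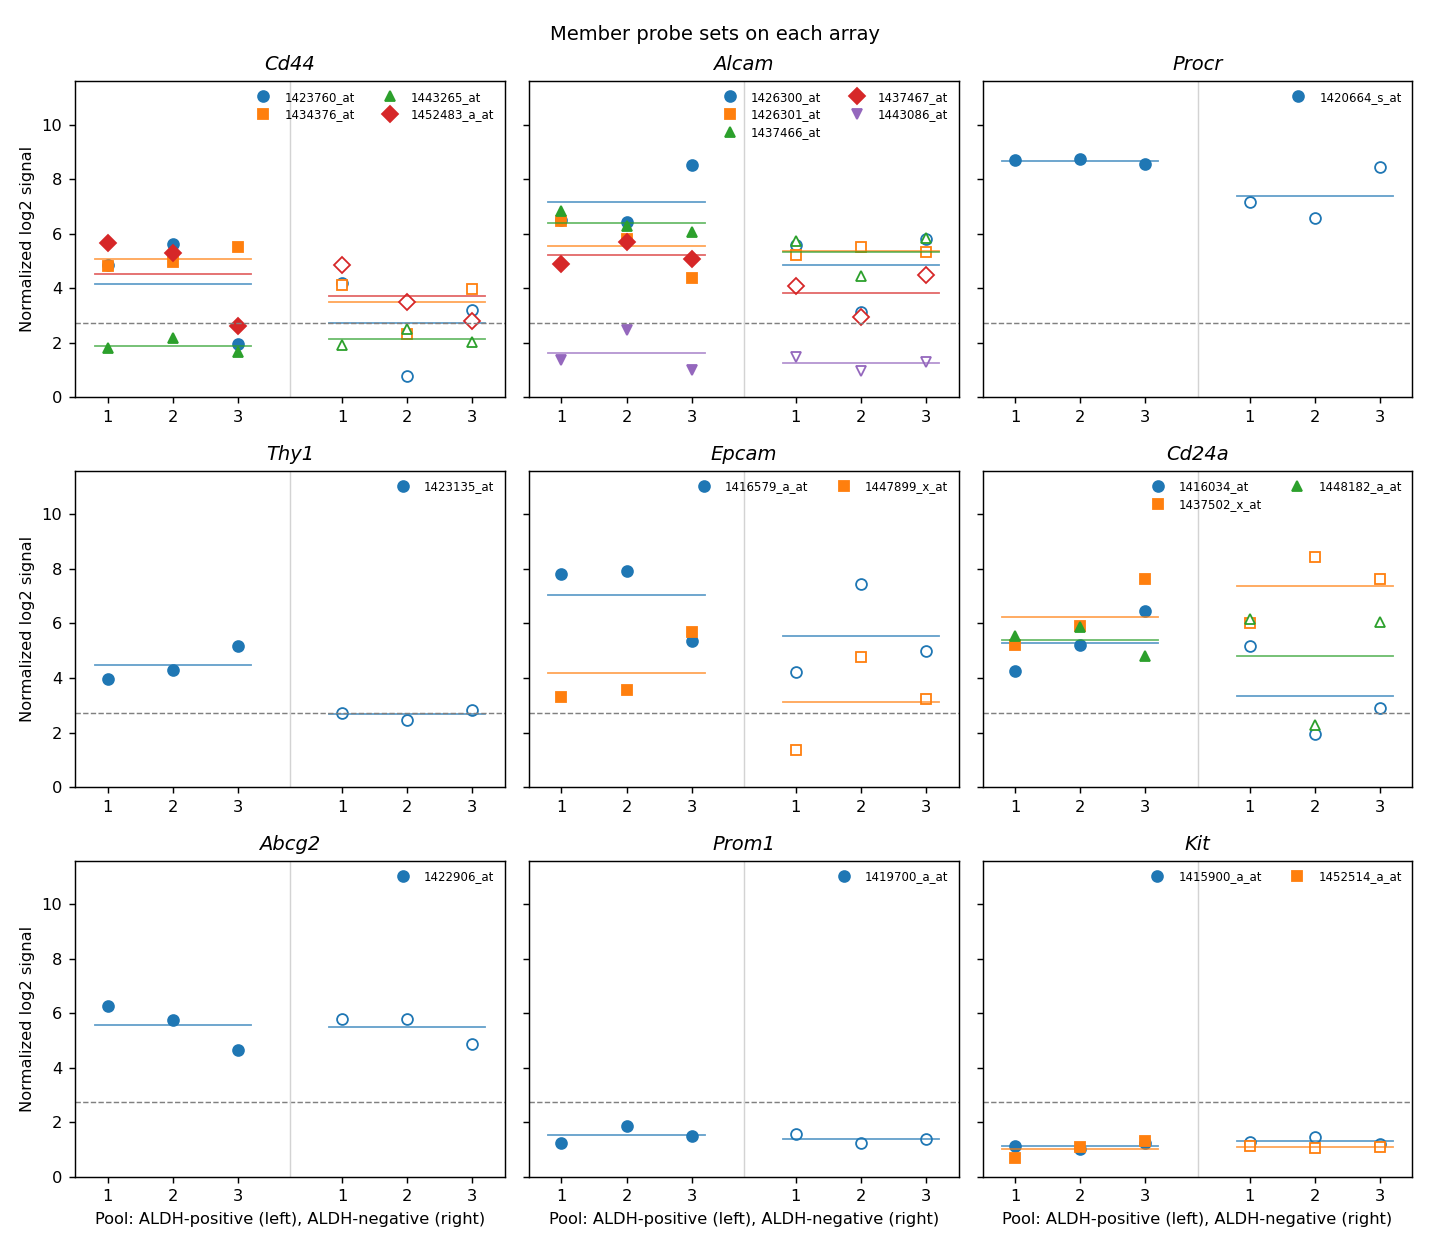
Normalized log2 signal of each member probe set on the 6 arrays, with ALDH-positive pools 1 to 3 on the left of each panel (filled) and ALDH-negative pools on the right (open); horizontal lines are group means and the dashed line is the background level of 2.73. Alcam, Thy1 and Procr sit higher in ALDH-positive cells for most probe sets, Abcg2 overlaps, and Prom1 and Kit stay below the dashed line.

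Of the 20 probe sets, 15 were bright enough in their mean to be tested. The 5 that were not were the ones of Prom1 and Kit and 1 each of Cd44 and Alcam, with levels of 0.70 to 2.49. The filter uses the mean of both fractions, so a probe set that is bright in 1 fraction alone enters through that fraction. This was so for Thy1 and for 1423760_at of Cd44, whose ALDH-negative means of 2.677 and 2.727 lay below the level of 2.733. The counts that follow include both. For these probe sets the counts are a description and no support for a difference. No member probe set was called by limma with p-values adjusted (Benjamini-Hochberg) across the 27022 tested, of which 0% were called. At an unadjusted p under 0.05 there were 2, a probe set of Alcam and that of Thy1, both higher in ALDH-positive cells. Of all probe sets tested, 2.45% reached that mark, 2.04% higher and 0.403% lower. An exact sign-flip test over 3 pools, two-sided, cannot go below p = 0.25. With array weights, which give both arrays of a pool 1 weight and here leaned on pool 3, limma called 5 member probe sets, against 10.9% of all tested. Without pool 1 it called no member, against 0.0259% of all tested.

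Direction by pool gives a fuller description. In the mean, 14 of the 15 differences lay above 0 and 1 below, while of all 27022 tested 13033 lay above and 13989 below. Without pool 1 and without pool 2, 12 lay above 0 each time, without pool 3 it was 14, and with array weights 10. Of the 15, 7 were higher in ALDH-positive cells in every pool, against 11.5% of all probe sets tested, and 1 was lower in every pool, against 10.8%. For 6 of the 15, all ALDH-positive arrays lay above all ALDH-negative arrays, against 3.49% of all tested, and for none were they all below, against 3.4%. These 6 came from 4 genes, with 3 probe sets of Alcam and 1 each of Cd44, Thy1 and Procr, so they are not independent. Without the ALDH-negative array of pool 2 the count was 8, with both probe sets of Epcam added, against 6.72%. The same 8 were the ones that lay higher in pools 1 and 3, against 25.7%. The median difference was 1.27, and 0.70 over pools 1 and 3; over all probe sets tested it was -0.04 and 0.01.

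**Figure D2:**
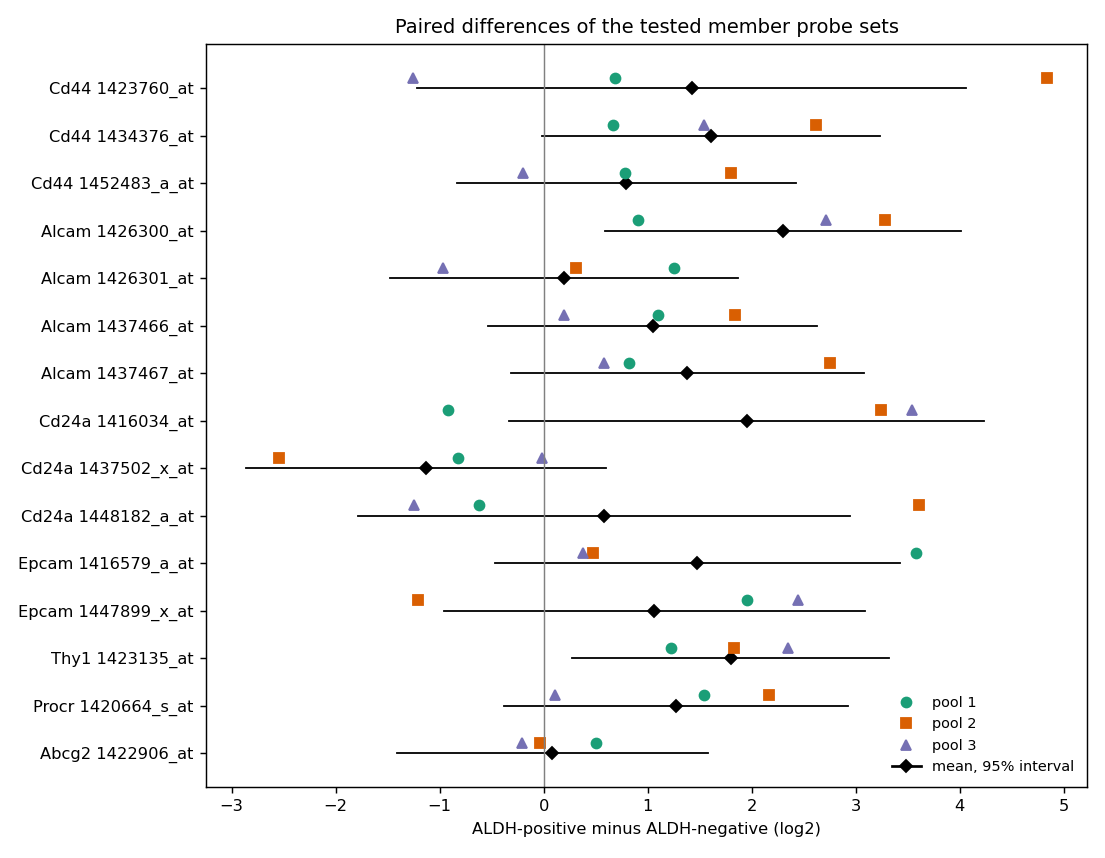
ALDH-positive minus ALDH-negative log2 differences of the 15 tested member probe sets, by pool (coloured symbols), with the limma mean and its 95% interval (black). The intervals of 1426300_at of Alcam (0.59 to 4.02) and of Thy1 (0.27 to 3.33) lie above 0, and all others include 0.

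The bases upstream of the genes Alcam, Cd44 and Procr are shown because these genes had probe sets that kept the fractions apart in every pool, and a promoter was available for them. They come from RefSeq (GRCm38.p6), run 5′ to 3′ on the strand of the gene, and stop before the annotated gene span. Capitals mark matches on either strand to the GC box (GGGCGG), to the letters CCAAT, to the letters TGANTCA bound by the transcription factors Fos and Jun, to the box TATAAA, or to AGGTCA, the core hexamer of retinoid receptor sites. No 2 matches overlap. The window of Alcam is chr16:52453082-52453331, on the minus strand, that of Cd44 is chr2:102901670-102901915, on the minus strand, and that of Procr is chr2:155750967-155751124, on the plus strand.
Alcam: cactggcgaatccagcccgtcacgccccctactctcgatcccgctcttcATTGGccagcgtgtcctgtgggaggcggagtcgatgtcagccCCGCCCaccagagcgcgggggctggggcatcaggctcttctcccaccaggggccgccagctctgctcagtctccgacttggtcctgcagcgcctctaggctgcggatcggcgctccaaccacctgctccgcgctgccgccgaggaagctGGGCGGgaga
Cd44: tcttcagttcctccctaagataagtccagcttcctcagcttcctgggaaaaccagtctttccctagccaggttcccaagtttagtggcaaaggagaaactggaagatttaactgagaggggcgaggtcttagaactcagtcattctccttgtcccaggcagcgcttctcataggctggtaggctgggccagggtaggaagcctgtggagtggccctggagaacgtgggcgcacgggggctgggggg
Procr: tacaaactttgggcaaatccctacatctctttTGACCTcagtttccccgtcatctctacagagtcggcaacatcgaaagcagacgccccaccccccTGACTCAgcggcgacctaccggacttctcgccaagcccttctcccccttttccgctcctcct
The Alcam window held 2 GC boxes and 1 CCAAT match. At least 1 GC box occurs in 32.7% of all 32851 promoters over the same 250 bases, and at least 1 CCAAT match in 33.8%. The Cd44 window held none of the 5 motifs. The Procr window held 1 TGANTCA and 1 AGGTCA match, found in 4.27% and 8.97% of promoters over its 158 bases. GC content was 69.2%, 56.1% and 56.3% in Alcam, Cd44 and Procr. The medians of all promoters over the same lengths were 52.4%, 52.0% and 51.3%. No motif was common to the 3 windows. A match is a run of letters and not a measured site.

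Among the adhesion molecules, Alcam gave the clearest separation. Its probe set 1426300_at read 6.49, 6.43 and 8.53 in ALDH-positive cells, against 5.59, 3.14 and 5.82 in ALDH-negative cells of pools 1 to 3. The fractions did not overlap. The difference was 2.30 (SE 0.73, n = 3 pools, limma adjusted p = 0.895), a 4.94-fold mean. Without pool 2 it was 1.81 (SE 0.55), and without pool 1 it was 3.002 (SE 1.24). Without the ALDH-negative array of pool 2 alone, in an unpaired fit, it was 1.45 (SE 0.73), and its unadjusted p no longer fell under 0.05.

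The other probe sets of Alcam gave smaller differences. Probe set 1437466_at read 6.82, 6.29 and 6.05 in ALDH-positive cells, against 5.72, 4.45 and 5.84 in ALDH-negative cells. Probe set 1437467_at read 4.90, 5.71 and 5.05 in ALDH-positive cells, against 4.08, 2.96 and 4.48 in ALDH-negative cells. Both kept the fractions apart, with pool 3 differences of only 0.20 and 0.58. Probe set 1426301_at read 6.47, 5.82 and 4.37 in ALDH-positive cells, against 5.22, 5.51 and 5.34 in ALDH-negative cells. Its fractions overlapped and its pool 3 difference was -0.97, while 1426300_at gave 2.72 in that pool. The fifth probe set, 1443086_at, was below the background level on every array. In pools 1 and 2 the 4 tested probe sets agreed in sign, and in pool 3 they did not.

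Cd44 showed a similar split. Probe set 1434376_at read 4.80, 4.95 and 5.51 in ALDH-positive cells, against 4.13, 2.34 and 3.97 in ALDH-negative cells. The fractions did not overlap, and the difference was 1.61 (SE 0.70, n = 3, limma adjusted p = 0.895). Without pool 2 it was 1.10 (SE 0.44), and without the ALDH-negative array of pool 2 alone 1.04 (SE 0.42). Probe set 1423760_at read 4.86, 5.63 and 1.96 in ALDH-positive cells, against 4.18, 0.79 and 3.22 in ALDH-negative cells. Probe set 1452483_a_at read 5.64, 5.30 and 2.62 in ALDH-positive cells, against 4.86, 3.51 and 2.81 in ALDH-negative cells. Both had overlapping fractions and a pool 3 difference below 0, at -1.26 and -0.20. Their readings in ALDH-positive cells of pool 3 also lay below the background level. The fourth, 1443265_at, was dim throughout. In pool 1 the 3 tested probe sets lay close together, with differences of 0.67 to 0.78. The low 5' signal of Gapdh falls in the same pool 3 where the probe sets of both genes part in sign. In pool 2 they agreed in sign but also lay far apart, from 1.80 to 4.84 for Cd44 and from 0.31 to 3.29 for Alcam. The role of the Gapdh signal in this was not tested.

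Epcam is encoded on chromosome 17 and had 2 probe sets. On 1416579_a_at it read 7.80, 7.93 and 5.36 in ALDH-positive cells, against 4.23, 7.45 and 4.98 in ALDH-negative cells. It was higher in ALDH-positive cells in each pool, by 3.58, 0.48 and 0.38, but the fractions overlapped through the ALDH-negative array of pool 2. The mean was 1.48 (SE 0.83, n = 3, limma adjusted p = 0.895). Without that array, in an unpaired fit, it was 2.43 (SE 0.87), and without pool 1 it was 0.43 (SE 1.24), so the size rested on pool 1. On 1447899_x_at it read 3.32, 3.58 and 5.68 in ALDH-positive cells, against 1.36, 4.78 and 3.24 in ALDH-negative cells. The pool differences were 1.95, -1.21 and 2.45, and the mean of 1.06 (SE 0.87) became 2.20 (SE 0.41) without pool 2 (limma adjusted p = 0.644). The suffix _x marks probe sets of which some probes can bind other transcripts.

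**Figure D3:**
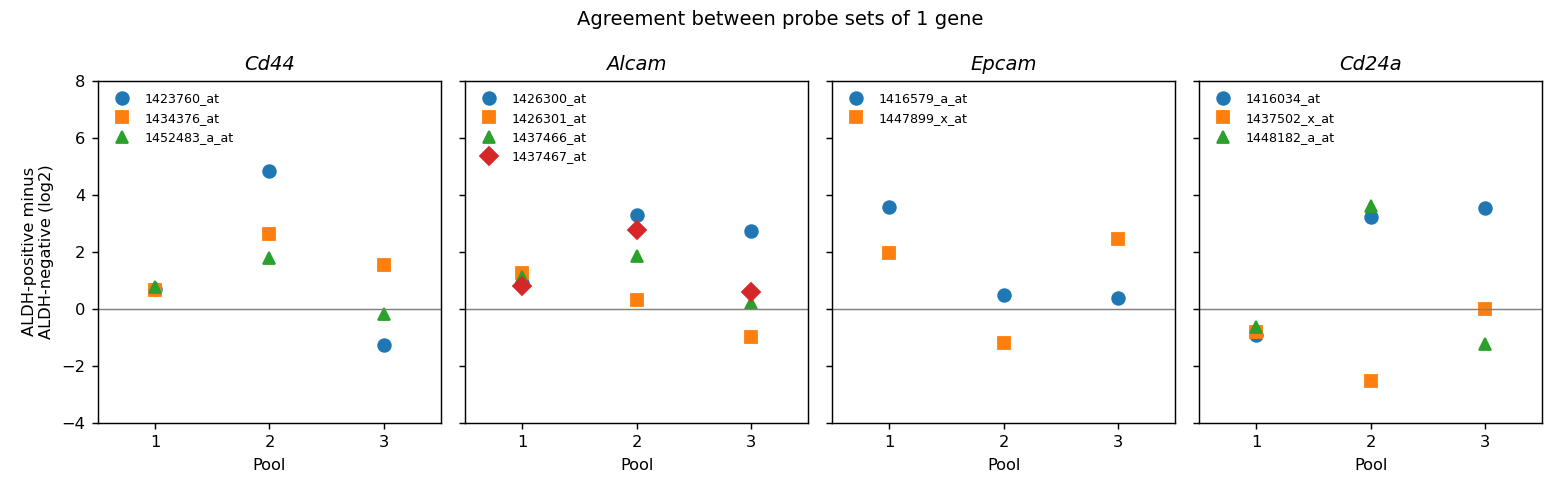
ALDH-positive minus ALDH-negative log2 difference of each tested probe set of Cd44, Alcam, Epcam and Cd24a in pools 1 to 3. Probe sets of Cd44 lie together in pool 1 (0.67 to 0.78), far apart in pool 2 (1.80 to 4.84), and part in sign in pool 3 (-1.26 to 1.54). Those of Cd24a part most in pool 2 (-2.54 to 3.61).

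Thy1 was higher in ALDH-positive cells in each pool by more than 1. Its only probe set, 1423135_at, read 3.96, 4.29 and 5.18 in ALDH-positive cells, against 2.73, 2.47 and 2.83 in ALDH-negative cells. The fractions did not overlap, and the ALDH-negative readings lay about the background level. The pool differences were 1.22, 1.83 and 2.35, with a mean of 1.80 (SE 0.65, n = 3, limma adjusted p = 0.895). It was 1.79 (SE 0.46) without pool 2. Because the ALDH-negative mean of 2.68 is at background, the 3.48-fold ratio of means is against background signal.

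Thy1 is carried by fibroblasts and by T cells as well as by progenitors. Of the 8 fibroblast and stroma markers, 6 were above the background level on all arrays of both fractions, while Lum and Tcf21 were below it on every array. Their mean level ranged from 5.37 to 5.60 on the ALDH-positive arrays and from 3.69 to 4.82 on the ALDH-negative arrays. Of the 8 leukocyte markers with a probe set, 3 were above the level on all ALDH-positive arrays and 3 on all ALDH-negative arrays. Their mean level was 2.58 to 3.59 on the ALDH-positive arrays and 2.73 to 4.40 on the ALDH-negative arrays. Of the T cell genes, Cd3g was below the level on every array, while Cd3e read 3.67, 3.28 and 3.58 in ALDH-positive cells, against 2.88, 7.72 and 3.75 in ALDH-negative cells. All 7 smooth muscle and pericyte markers had a probe set, and their mean level was 4.88 to 5.45 on the ALDH-positive arrays and 3.72 to 4.72 on the ALDH-negative arrays. The part of these other cell types in the Thy1 signal was not tested. By Pearson correlation over the 6 arrays, the genes whose levels were most like those of Thy1 were Mgat3 (r = 0.997) and the collagen gene Col3a1 (r = 0.996). The nearest genes of the other tested members reached r of 0.983 to 0.999, so values this high were not particular to Thy1. With 6 points that share arrays, and all tested probe sets of exactly 1 gene to choose from, values this high are a description only.

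Cd24a, a small mucin-like glycoprotein, gave contradictory probe sets. On 1416034_at it read 4.24, 5.20 and 6.45 in ALDH-positive cells, against 5.16, 1.96 and 2.92 in ALDH-negative cells. On 1448182_a_at it read 5.53, 5.89 and 4.79 in ALDH-positive cells, against 6.16, 2.27 and 6.04 in ALDH-negative cells. On 1437502_x_at it read 5.21, 5.90 and 7.64 in ALDH-positive cells, against 6.03, 8.44 and 7.65 in ALDH-negative cells. The fractions overlapped on all 3. In pool 1 every probe set was lower in ALDH-positive cells, with differences of -0.92, -0.63 and -0.83 in the order given. In pool 2 the differences were 3.24, 3.61 and -2.54, and in pool 3 they were 3.54, -1.25 and -0.01. The mean differences were 1.95 (SE 0.98), 0.58 (SE 1.01) and -1.13 (SE 0.74), none past the threshold (limma adjusted p = 0.895, 0.91 and 0.895). Without pool 2 that of 1448182_a_at turned to -0.94 (SE 0.42). All 3 probe sets were above the background level on every ALDH-positive array, but on every ALDH-negative array only 1437502_x_at was. The call of Cd24a in ALDH-negative cells thus rests on a probe set of the _x kind, which was brightest, at 8.44, on the array of pool 2 that differed from all others. No direction can be given for Cd24a.

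Procr, a marker of multipotent progenitors in mouse mammary gland, was bright in both fractions. Its only probe set, 1420664_s_at, read 8.71, 8.73 and 8.56 in ALDH-positive cells, against 7.17, 6.56 and 8.46 in ALDH-negative cells. Agreement between probe sets could thus not be judged for Procr. The fractions did not overlap, but in pool 3 they were only 0.11 apart. The difference was 1.27 (SE 0.71, n = 3, limma adjusted p = 0.895), and 0.82 (SE 0.50) without pool 2. The ALDH-positive arrays were close to each other (SD 0.09), and the spread lay in the ALDH-negative arrays (SD 0.97).

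Abcg2 was detected in both fractions, and their levels overlapped. Its probe set 1422906_at read 6.27, 5.75 and 4.67 in ALDH-positive cells, against 5.77, 5.79 and 4.88 in ALDH-negative cells. The difference was 0.08 (SE 0.64, 95% interval -1.41 to 1.58, limma adjusted p = 0.982). The interval still allows a difference of more than 1 in either direction.

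Other antigens used to sort stem and progenitor cells were read in the same fit, with 1 probe set a gene. Of 36 such genes, 33 had a probe set and 30 were tested; limma called none, 4 had an unadjusted p under 0.05 and all 4 were higher in ALDH-positive cells, a direction and mark reached by 2.04% of all probe sets tested. They were Cd200, Met, Pdpn and Ly6e. Of the 30, 7 were higher and 5 lower in every pool, against 11.5% and 10.8% of all tested. The median difference was 0.12, and 0.20 over pools 1 and 3, with pool medians of 0.23, -0.41 and 0.19.

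Cd200, an inhibitory ligand of myeloid cells that also marks human hair follicle stem cells, read 6.26, 6.05 and 7.33 in ALDH-positive cells, against 3.11, 1.03 and 4.82 in ALDH-negative cells. The difference was 3.56 (SE 0.74, limma adjusted p = 0.895). Met, the receptor of hepatocyte growth factor, read 6.77, 7.06 and 7.56 in ALDH-positive cells, against 4.44, 3.21 and 6.01 in ALDH-negative cells. Pdpn, a mucin-type glycoprotein of mesothelium and lymphatic endothelium, read 8.68, 8.22 and 8.73 in ALDH-positive cells, against 6.18, 6.68 and 6.09 in ALDH-negative cells. All 3 genes kept the fractions apart, and over pools 1 and 3 alone the differences were 2.83, 1.94 and 2.57. Ly6e, of the family of Ly6a, had a mean difference of 3.48 (SE 1.15), with 1.85, 7.18 and 1.40 in pools 1 to 3. On the ALDH-negative array of pool 2, Ly6e read 2.52 and Cd200 1.03, both below the background level, so their pool 2 differences are against background signal. Icam1, an adhesion ligand of leukocyte integrins, had differences of 1.10, 1.64 and 1.23 in pools 1 to 3, with a mean of 1.32 (SE 0.64). Eng, a coreceptor of TGF-beta, had -0.75, -1.66 and -1.06, with a mean of -1.16 (SE 0.65).

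Ligands and partners of the members gave 16 tested genes of 25. Limma called none of them, 3 had an unadjusted p under 0.05, all higher in ALDH-positive cells, against 2.04% of all probe sets tested. The median difference was 0.12, and 0.38 over pools 1 and 3, with pool medians of 0.30, -0.09 and 0.34. The 3 were Ezr, Msn and Thbd. Ezrin and moesin, encoded by Ezr and Msn, link the tail of Cd44 to the actin cortex. Ezr read 8.77, 8.38 and 7.68 in ALDH-positive cells, against 6.56, 1.35 and 5.41 in ALDH-negative cells. Its difference was 3.83 (SE 1.04), and 2.24 over pools 1 and 3, while the pool 2 reading of 1.35 in ALDH-negative cells lay below the background level. Msn had differences of 0.79, 2.74 and 1.49 in pools 1 to 3, with a mean of 1.67 (SE 0.70). The third protein of that family, radixin (Rdx), had 0.09, -2.69 and -0.22. Its mean of -0.94 (SE 0.78) thus rested on pool 2, and was -0.063 over pools 1 and 3. Thbd encodes thrombomodulin, which with Procr activates protein C at the cell surface. It read 6.11, 5.42 and 6.39 in ALDH-positive cells, against 4.77, 3.99 and 3.07 in ALDH-negative cells, a difference of 2.03 (SE 0.71). F2r, the thrombin receptor that activated protein C can cleave, lay lower in ALDH-positive cells in each pool, with differences of -0.71, -1.67 and -0.47. Mmp14, a membrane metalloproteinase that cleaves Cd44, had differences of 1.96, 1.48 and 0.32, with a mean of 1.25 (SE 0.68). Kitl, the ligand of Kit, had 0.32, -0.58 and 0.56, with a mean of 0.097 (SE 0.66) and 0.44 over pools 1 and 3.

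**Figure D4:**
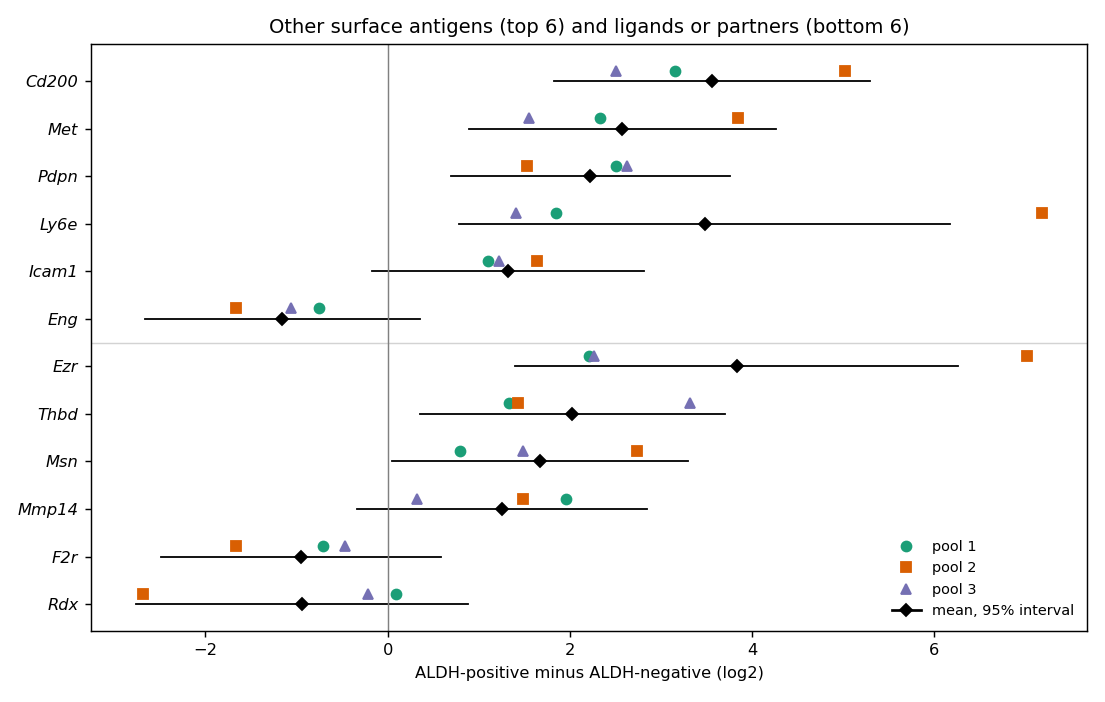
ALDH-positive minus ALDH-negative log2 differences of the 6 other surface antigens (top) and the 6 ligands or partners of the members (bottom) with the smallest limma p in their list (before adjustment), by pool, with the mean and its 95% interval. Cd200, Met, Pdpn, Ly6e, Ezr, Thbd and Msn have intervals above 0 before adjustment, while Eng and F2r lie below 0 in every pool.

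The labelled tissue was checked against its own markers. All 12 genes of the surface epithelium list were above the background level on every ALDH-positive array and 9 on every ALDH-negative array. Their mean level was 7.33 to 7.80 on the ALDH-positive arrays and 3.87 to 4.38 on the ALDH-negative arrays. That list moved with the fractions in all 3 pools, with medians of 4.28, 3.11 and 3.24. Its part in the differences of Alcam, Cd44, Thy1 and Procr was not tested. Genes of steroid-making cells were also detected, with 3 of 4 measured theca and luteal markers above the level on all arrays of both fractions. Mean levels of that list were 7.02 to 7.51 on the ALDH-positive arrays. On the ALDH-negative arrays of pools 1 to 3 they were 7.94, 4.48 and 7.62. Of the 5 measured granulosa markers, 4 were above the level on all arrays of both fractions.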

How the data were processed

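The 6 arrays were made from biotin-labelled cDNA amplified with the Ovation Pico WTA System, per the labels' protocols. One deposited table holds 45101 probe sets on every array. The authors' deposited values, from 0.035 to 13.06, were taken as log2 signal from their range, since no header states the scale. How they were summarised and normalized is not given in the sources used here. The series design names GeneSifter and a paired SAM analysis.

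Array medians differed by 0.46, above the limit of 0.2, so the 45037 non-control probe sets were quantile normalized. The lower 40% by mean were removed, which left 27022. The test was limma (version 3.58.1, R 4.3.3) with the pool as a block, Benjamini-Hochberg adjustment and a threshold of 0.05. The fit was tested on simulated data with equal noise on every probe set and array. That test thus did not cover an array like the ALDH-negative one of pool 2. Alternatives were array weights, no block, each pool or the ALDH-negative array of pool 2 left out, other scalings and filters, and other limits of detection. Precision is limited by the number of arrays. As a check of the pairing, the 2 arrays of a pool were compared after the mean of each fraction was taken off, and correlated at 0.38, -0.19 and 0.35. The ALDH-positive array of pool 2 and the ALDH-negative array of pool 1 correlated at 0.42, so this check did not single out the pairs. The pairing rests on the series design, which names a paired analysis of 3 pools. The limma SEs and p-values measure the spread between pools, with the variance of each probe set drawn towards a value shared by all tested. They are therefore not the spread of 1 gene alone. Without pool 1 every tested member probe set had the same SE of 1.24.

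GEO's platform annotation gave 1 gene symbol for 34945 probe sets, several for 932 and none for 9160. Symbols were checked through the Entrez identifier against RefSeq, and 0 changed. The members, the lists and the rule for named genes (all members, and up to 6 tested genes of smallest p in each of 2 lists) were chosen with earlier results of these data known. Where 1 value per gene was needed, the probe set of highest mean was used. For each tested member the rule also took the genes of most similar levels, of which only those of Thy1 are named.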

Additional observations from a re-analysis of the deposited data

How the results depend on the processing

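No result passed the threshold in the main analysis, and among the alternatives planned with the test only 2 gave calls over the whole table. Leaving out 1 pool gave 0 to 7 called probe sets of 27022, the 7 without pool 1 and none of them a member. Array weights gave 2953, with 5 member probe sets and 11 genes of the related lists. In the paired fit both arrays of a pool share a weight, which was 1.30, 0.158 and 4.87 in pools 1 to 3, so these calls lean on pool 3. The 5 were 1434376_at of Cd44 (1.39), 1426300_at of Alcam (2.36), 1416034_at of Cd24a (2.62), 1447899_x_at of Epcam (2.26) and Thy1 (2.10).

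Signs turned with array weights for 1423760_at of Cd44 (-0.71), 1426301_at of Alcam (-0.48), 1448182_a_at of Cd24a (-0.997) and Abcg2 (-0.061). When each pool was left out in turn, 1423760_at ran from -0.29 to 2.76, 1426301_at from -0.33 to 0.78, 1448182_a_at from -0.94 to 1.49 and Abcg2 from -0.13 to 0.23. Without the ALDH-negative array of pool 2 alone, 1448182_a_at was -0.69. Apart from the stated construction of the weights, the cause was not tested. The signs of the tested member probe sets held in the values as deposited, in median-centred arrays, and without the filter. Sizes moved with the scaling. As deposited and median-centred, 1416579_a_at of Epcam was 2.12 and 2.28 against 1.48, with unadjusted limma p of 0.026 and 0.022. Procr was 1.78 and 1.94 against 1.27, and 1437502_x_at of Cd24a was -0.57 and -0.40 against -1.13.

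Without the replicate block no probe set was called either, and the difference of Thy1 had SE 0.60 in place of 0.65; the block changed no call. Judged by Y-linked probe sets, 3 genes in place of 6 were detected in ALDH-negative cells. The mean over all probe sets of a gene was 1.06 for Alcam, 0.89 for Cd44 and 0.47 for Cd24a, against 2.30, 1.61 and -1.13 for the brightest. Counts without the ALDH-negative array of pool 2 were chosen after seeing the data. No detection calls were used, so that signal near 2.73 cannot be told from background.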
